A study of Mus musculus with 3 samples.

Results

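The collagen genes of the mouse were followed here through an RNA immunoprecipitation of the RNA demethylase FTO from white fat. They were all rows of the deposited count table whose gene symbol is Col, a number, the letter a and a number, which gave 44 of 39179 genes. By the structure of the protein, 11 encode fibrillar collagens, 8 basement membrane collagens (the 6 type IV chains and types XV and XVIII) and 25 other collagens. The tissue of every library was white fat, taken after an overnight fast from C57BL/6 mice 16 weeks old that carried a Flag-FTO transgene. The controls thus carried the transgene too, and its promoter is not given in the sources used here. RNA recovered with the M2 monoclonal antibody against the Flag tag makes up the 2 Flag-IP libraries, and RNA recovered with IgG makes up the 1 IgG-IP library, from the same kind of lysate. The comparison asks which RNAs came down with tagged FTO more than with IgG. Nothing in the labels tells if each library is a different animal, so p-values measure only the spread between these samples, and the IgG-IP arm has no replicate.

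Collagens are proteins of 3 chains wound into a triple helix, in which glycine recurs as the first residue of each Gly-X-Y triplet. Fibrillar collagens assemble into the cross-linked fibrils that give tissue its tensile strength, type IV collagen forms the sheet-like network of basement membranes, and type VI forms beaded filaments around cells. In fat, each adipocyte is enclosed by a basement membrane rich in type IV and type VI collagen, and stromal fibroblasts and progenitors make most of the fibrillar collagen.

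The libraries held 98227791 (Flag-IP 1), 95824218 (Flag-IP 2) and 74176962 (IgG-IP) counts, and 17587 genes had enough counts to be tested. Counts below are as deposited. "Normalized" counts are divided by each library's scaled size, by the trimmed mean of M-values (TMM). Fold changes are Flag-IP over IgG-IP on the log2 scale with their standard error, and a gene is called higher or lower when the adjusted p of edgeR's quasi-likelihood test, with Benjamini-Hochberg adjustment over all 17587 genes, is under 0.05. With 3 libraries there is 1 residual degree of freedom, and the fit took the same spread for genes of like abundance (a biological coefficient of variation of 0.189), so a gene's own disagreement between the Flag-IP libraries hardly enters its p. In a bulk lysate, fewer cells of a type and less RNA per cell cannot be told apart.

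Collagen genes took a small part of each library. Their counts summed to 6658 in Flag-IP 1, 6472 in Flag-IP 2 and 6051 in IgG-IP, which is 67.8, 67.5 and 81.6 CPM (counts scaled to the library total), with exact 95% intervals of 66.2 to 69.4, 65.9 to 69.2 and 79.5 to 83.7 that cover counting error only. After TMM scaling the sums were 7170, 6409 and 5700, so the order of the groups turned with the scaling. Without Col6a6, a chain of type VI collagen, the normalized sums were 4805, 4862 and 4828, but the CPM were 45.4, 51.2 and 69.1, with IgG-IP still the highest.

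**Figure D1:**
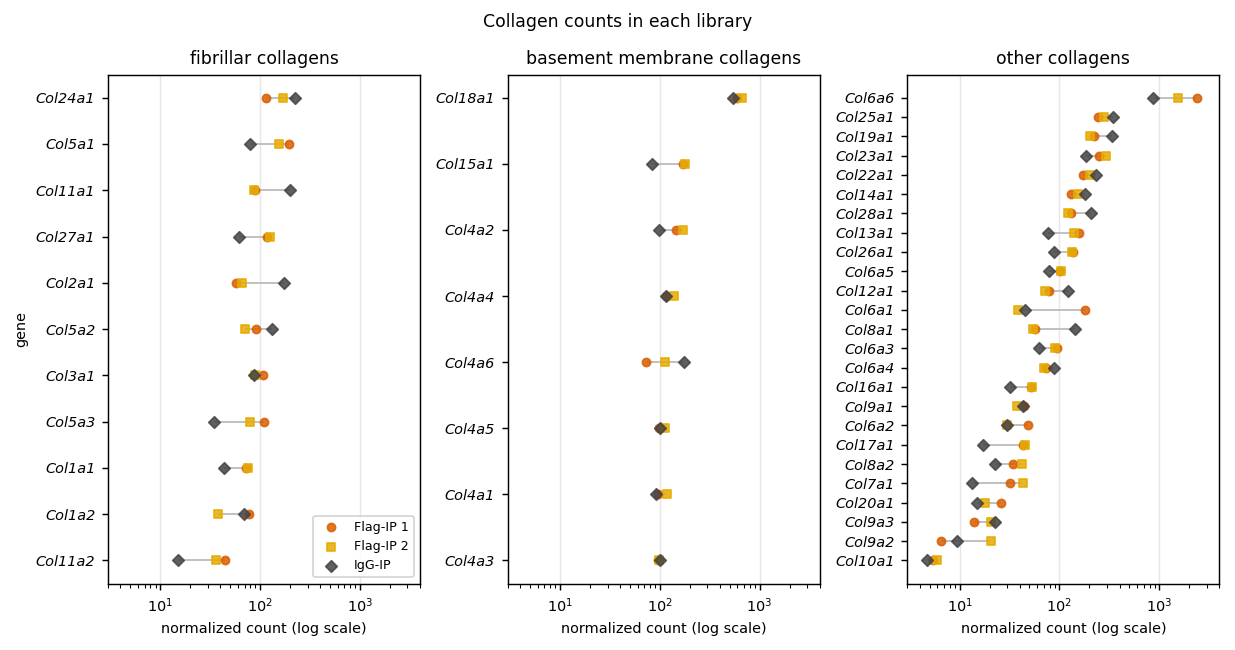
Normalized counts (log scale) of the 44 collagen genes in the 2 Flag-IP libraries (orange circles, yellow squares) and the IgG-IP library (grey diamonds), by class, with a grey line from the lowest to the highest library of each gene. Col6a6 stands above all others in each library, followed by Col18a1, and Flag-IP 1 of Col6a1 lies far from its 2 other libraries.

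The collagens split in both directions. Of the 43 tested, 10 were higher in Flag-IP (23.3%), where 5.58% of all tested genes were, and 7 were lower (16.3%), where 5.77% of all tested genes were. The remaining 26 did not pass the test, with fold changes between −0.72 and 0.78. Col10a1, the type X chain of growth plate cartilage, had 5, 6 and 5 counts and was not tested. The median fold change was 0.23 over the 43 collagens and 0.03 over all tested genes. Many genes in the table are sparse, and the background was higher where the mean count reached 50: 7 of 33 collagens were higher (21.2%) against 9.46% of such genes, and 7 were lower (21.2%) against 15.4%. Both Flag-IP libraries lay above IgG-IP, in normalized counts, for 21 of 43 collagens (48.8%) against 40.5% of all tested genes. Both lay below it for 15 (34.9%) against 39.0%, and for 7 the Flag-IP libraries lay on either side of IgG-IP.

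The split depends on how the libraries were scaled. Scaling by total counts moved the median of all genes to −0.48 and gave 1 collagen higher and 12 lower, against 1.94% and 17.1% of all tested genes. Upper-quartile scaling gave 11 higher and 4 lower, against 6.36% and 4.46%. DESeq2 gave no adjusted p for 31 of the 43 and called 1 collagen, Col6a6, which was also called higher under every other setting tested.

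**Figure D2:**
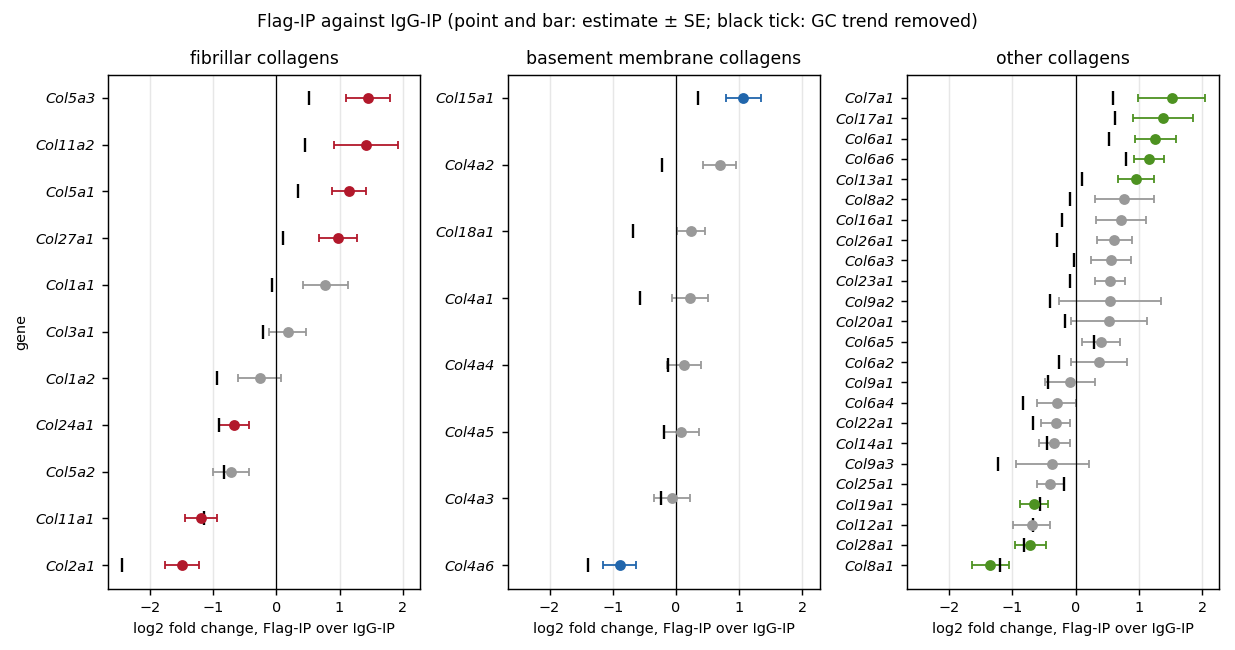
Log2 fold change of Flag-IP over IgG-IP for the 43 tested collagens by class, with the standard error as a bar; coloured points passed the adjusted p of 0.05 and grey points did not, and black ticks give the fold change after the trend with GC content was removed. Called genes run from −1.49 (Col2a1) to 1.52 (Col7a1), and the ticks lie left of the points for the genes called higher.

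Among the 11 fibrillar collagens, 4 were higher, 3 were lower and 4 were not called, with a median fold change of 0.18. Of all tested genes 5.58% were higher and 5.77% lower, and 9.46% and 15.4% where the mean count reached 50. The 3 collagens with the most counts of this class were Col24a1, Col5a1 and Col11a1. Both type V chains that were higher and both type XI chains belong to the minor collagens that sit inside thicker fibrils and set their diameter.

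Col5a3 (ENSMUSG00000004098), the α3 chain of type V, had 103 counts in Flag-IP 1, 81 in Flag-IP 2 and 37 in IgG-IP. The Flag-IP libraries were both above IgG-IP, with a fold change of 1.45 ± 0.35 (SE) and an adjusted p of 0.00133. Col5a1, the α1 chain present in most type V molecules, had 182, 157 and 84 counts and a fold change of 1.15 ± 0.27 (adjusted p = 0.000968). Col11a2, the α2 chain of type XI, was sparser, with 41, 37 and 16 counts and a fold change of 1.41 ± 0.51 just inside the threshold (adjusted p = 0.0472). Col27a1, a fibrillar collagen of developing cartilage, had 109, 126 and 65 counts and a fold change of 0.98 ± 0.30 (adjusted p = 0.0167). In these 4 genes both Flag-IP libraries lay above the 1 IgG-IP library, as they did in 40.5% of all tested genes.

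Col2a1, the chain of cartilage type II collagen, had the lowest fold change of the 43 tested collagens. It had 54, 67 and 186 counts, and its fold change was −1.49 ± 0.27 (adjusted p = 4.65e-06). Col11a1, the partner chain of Col11a2 in type XI collagen, had 82, 87 and 212 counts, with IgG-IP again far above both Flag-IP libraries and a fold change of −1.19 ± 0.26 (adjusted p = 0.000152). Col24a1, a fibrillar collagen of developing bone, had 107, 171 and 240 counts, where Flag-IP 2 lay closer to IgG-IP than Flag-IP 1 did, and a fold change of −0.66 ± 0.24 (adjusted p = 0.0452). Each of the 3 had both Flag-IP libraries below IgG-IP, as did 39.0% of all tested genes.

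The collagens that dominate fibrils in most connective tissue were not called. Col1a1, the α1 chain of type I, had 68, 76 and 46 counts (0.78 ± 0.35, adjusted p = 0.141). Its partner chain Col1a2 had 72, 38 and 73 counts, with Flag-IP 1 close to IgG-IP and Flag-IP 2 below it (−0.26 ± 0.34, adjusted p = 0.682). Col3a1, the type III chain of soft tissue, had 100, 90 and 92 counts (0.18 ± 0.29, adjusted p = 0.757). Col5a2, the α2 chain of type V, had 84, 72 and 141 counts and missed the threshold in the direction opposite to the other type V chains (−0.72 ± 0.28, adjusted p = 0.0737).

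The Gly-X-Y repeat that these chains share can be read in their coding sequences. The start of the longest unbroken Gly-X-Y run of 5 fibrillar chains is shown, as the DNA sense strand of GENCODE M21 transcripts (GRCm38). The glycine codon that opens each triplet is in capitals, and any glycine codon at the X or Y position is in lower case. The first 3 chains were higher in Flag-IP and the last 2 lower.
Col5a1: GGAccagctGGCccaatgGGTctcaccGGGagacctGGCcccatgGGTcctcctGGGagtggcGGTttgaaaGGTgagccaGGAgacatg
Col5a3: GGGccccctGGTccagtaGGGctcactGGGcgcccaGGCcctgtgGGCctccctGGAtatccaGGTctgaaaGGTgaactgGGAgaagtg
Col11a2: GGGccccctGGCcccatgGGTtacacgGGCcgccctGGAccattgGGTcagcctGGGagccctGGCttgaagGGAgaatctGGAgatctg
Col11a1: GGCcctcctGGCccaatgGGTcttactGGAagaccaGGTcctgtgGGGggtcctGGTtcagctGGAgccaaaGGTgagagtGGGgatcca
Col2a1: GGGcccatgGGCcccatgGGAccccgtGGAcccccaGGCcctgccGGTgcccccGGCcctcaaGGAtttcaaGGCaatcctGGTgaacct

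All 5 windows open each triplet with glycine, a codon whose first 2 bases are fixed and whose last base is free. The windows themselves were alike in composition, with 62.2 to 70% GC, and Col2a1 had the highest GC. Of the 10 glycine codons that open a triplet, 4 or 5 ended in G or C. The longest run held 337 triplets in Col5a3, 338 in Col11a2 and Col11a1 and 339 in Col2a1. Over the whole coding sequence, 47.3% of glycine codons ended in G or C in Col5a1, 47.3% in Col5a3 and 44.8% in Col11a2, against 29.5% in Col11a1 and 35.4% in Col2a1. Col11a1 and Col11a2 thus contribute to the same type of collagen but had transcripts of 48.0% and 62.9% GC, and they were called in opposite directions. Col2a1 departs from this order, since its transcript is 62.2% GC and it was lower. The 5 chains shown were taken from those called. In the 4 fibrillar chains not called, the share was 27.5% (Col1a1), 28.6% (Col1a2), 24.9% (Col3a1) and 29.1% (Col5a2). Their fold changes were 0.78, −0.26, 0.18 and −0.72. Over the 26 uncalled collagens of all classes the share ran from 24.9 to 58.5%. The genes lie at chr2:27886425-28039514 (Col5a1), chr9:20770050-20815067 (Col5a3), chr17:34039437-34066685 (Col11a2), chr3:114030540-114220718 (Col11a1) and chr15:97975602-98004695 (Col2a1) in GRCm38.

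Of the 8 basement membrane collagens, 1 was higher, 1 was lower and 6 were not called, against 5.58% higher and 5.77% lower of all tested genes. The median fold change was 0.17 (0.11 over the 6 type IV chains alone). Col15a1 (chr4:47208161-47313167), a proteoglycan collagen that links basement membranes to the fibrils beneath them, had 159, 182 and 89 counts. Both Flag-IP libraries were well above IgG-IP, with a fold change of 1.07 ± 0.27 (adjusted p = 0.0024). Col4a6 (chrX:141165403-141474076), a type IV chain of smooth muscle and epithelial basement membranes, was lower, with 68, 115 and 185 counts and a fold change of −0.89 ± 0.26 (adjusted p = 0.0103).

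Col4a1 and Col4a2, whose chains form the type IV network found in nearly all basement membranes, had 89, 120 and 98 counts and 136, 171 and 104 counts. Their fold changes were 0.22 ± 0.29 (adjusted p = 0.69) and 0.69 ± 0.27 (adjusted p = 0.0724), and neither was called. Col18a1 (chr10:77052178-77166548), whose cleaved end is endostatin, had the most counts of this class with 555, 674 and 571. In normalized counts both Flag-IP libraries exceeded IgG-IP, but the fold change was 0.23 ± 0.22 (adjusted p = 0.554). The kidney-type chains Col4a3, Col4a4 and Col4a5 had fold changes of −0.06, 0.13 and 0.09.

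Type IV genes stand in head-to-head pairs that share a control region, and the members of a pair are set side by side here. Col4a5 and Col4a6 start 1.31 kb apart on chromosome X, and Col4a6 was called lower while Col4a5, with 91, 115 and 106 counts, was not (the difference between them was not tested). Col4a3 and Col4a4, 0.071 kb apart on chromosome 1, both had fold changes near 0. Col4a1 and Col4a2 overlap at their starts on chromosome 8. Col4a2 had both Flag-IP libraries above IgG-IP, whereas Flag-IP 1 of Col4a1 was below IgG-IP in counts and slightly above it once normalized (95.8 against 92.3).

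Of the other collagens 24 were tested, of which 5 were higher, 3 were lower and 16 were not called, with a median fold change of 0.46. Over all tested genes 5.58% were higher and 5.77% lower. Col6a6 (chr9:105687809-105828160), which encodes a long type VI chain related to α3(VI), had the highest counts of all collagens, with 2196 in Flag-IP 1, 1562 in Flag-IP 2 and 926 in IgG-IP. The Flag-IP libraries lay above IgG-IP by 1.44 and 0.83 on the log2 scale, and the fold change was 1.16 ± 0.24 (adjusted p = 5.77e-05). DESeq2 also called it (adjusted p = 0.00316).

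Col6a1 (chr10:76708792-76726168), the α1 chain that every type VI molecule needs, passed the test on 1 library. It had 167 counts in Flag-IP 1 but 39 in Flag-IP 2, below the 48 in IgG-IP. The fold change of 1.26 ± 0.33 (adjusted p = 0.00318) became −0.23 without Flag-IP 1. Its usual partner chains Col6a2 (45, 30 and 32 counts, 0.37 ± 0.44, adjusted p = 0.652) and Col6a3 (87, 91 and 66 counts, 0.56 ± 0.32, adjusted p = 0.263) were not called. Col6a5 and Col6a4, which lie beside Col6a6 on chromosome 9 and resemble it, had 95, 105 and 83 counts and 68, 71 and 94 counts, with fold changes of 0.40 and −0.30. Of the 6 type VI genes 2 were called higher and 4 were not called, against 5.58% higher of all tested genes, with a median of 0.48.

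The 3 further higher genes of this class were Col7a1, Col17a1 and Col13a1, the last 2 among 4 transmembrane collagens. Col7a1, the anchoring fibril collagen beneath epithelia, had 30, 44 and 14 counts (1.52 ± 0.53, adjusted p = 0.0399). Col17a1, a transmembrane collagen of hemidesmosomes, had 40, 46 and 18 counts (1.38 ± 0.48, adjusted p = 0.0399). Col13a1, a transmembrane collagen that is needed at the neuromuscular junction, had 146, 140 and 81 counts (0.95 ± 0.28, adjusted p = 0.012). All 3 had both Flag-IP libraries above IgG-IP, as did 40.5% of all tested genes. The other transmembrane collagens were not called: Col23a1 had 230, 293 and 196 counts (0.54 ± 0.23, adjusted p = 0.116). Col25a1, known from amyloid plaques of the brain, had 228, 284 and 369 counts (−0.40 ± 0.22, adjusted p = 0.248).

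Of the lower genes in this class, Col8a1 (chr16:57624258-57754737), a short-chain network collagen of vessel walls, stood furthest from IgG-IP. It had 53, 55 and 151 counts, with close agreement between the Flag-IP libraries, and a fold change of −1.35 ± 0.29 (adjusted p = 0.00019). Its partner chain Col8a2 had 32, 43 and 24 counts and a fold change of 0.77 ± 0.47 that did not pass. Col28a1, a collagen of peripheral nerve, had 122, 123 and 221 counts (−0.72 ± 0.24, adjusted p = 0.033). Col19a1, one of the collagens that attach to fibrils without forming them (FACIT), had 205, 205 and 357 counts (−0.67 ± 0.22, adjusted p = 0.0295). Of the 9 FACIT genes it was the 1 called, against 5.77% lower of all tested genes, with 8 not called and a median of −0.31.

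The fold changes of the collagens ran with GC content. The 10 higher genes had transcripts of 52.4 to 62.9% GC (median 58.6%), and the 7 lower genes 46.8 to 62.2% (median 49.6%). Of the 23 collagens with a GC content of at least 55%, 9 were higher and 1, Col2a1, was lower, with a median fold change of 0.71. Of the 20 under 55%, 1, Col6a6, was higher and 6 were lower, with a median of −0.33. The same order held over the table: 3134 tested genes of at least 55% GC had 497 higher, 26 lower and a median of 0.83, and 14275 genes under 55% had 476 higher, 981 lower and a median of −0.12.

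As a description over genes of the same libraries, Spearman's rho between fold change and transcript GC content was 0.65 over the 43 collagens and 0.61 over 14920 protein-coding genes. With GC at the third codon positions rho was 0.62 over the collagens, and with the share of glycine codons ending in G or C it was 0.56. With the share of the coding sequence in Gly-X-Y runs it was −0.22. The ratio of the 2 Flag-IP libraries had a rho of −0.13 with GC content.

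When the trend of fold change on GC content over all genes was removed, 1 collagen was higher against 2.29% of all tested genes, and 7 were lower against 2.01%. The 1 higher gene was Col6a6 (0.79, adjusted p = 0.0221 by edgeR's quasi-likelihood test). Of the 7 lower genes 6 were among those lower before, including Col2a1 (−2.44), Col4a6 (−1.39), Col8a1 (−1.20) and Col11a1 (−1.15). Col18a1 was added (−0.68, adjusted p = 0.0403), against a value of 0.23 before. The other 9 higher genes had values of 0.09 (Col13a1) to 0.63 (Col17a1) and no longer passed. Over the tested collagens, rho between the fold change with the trend removed and GC content was still 0.31.

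**Figure D3:**
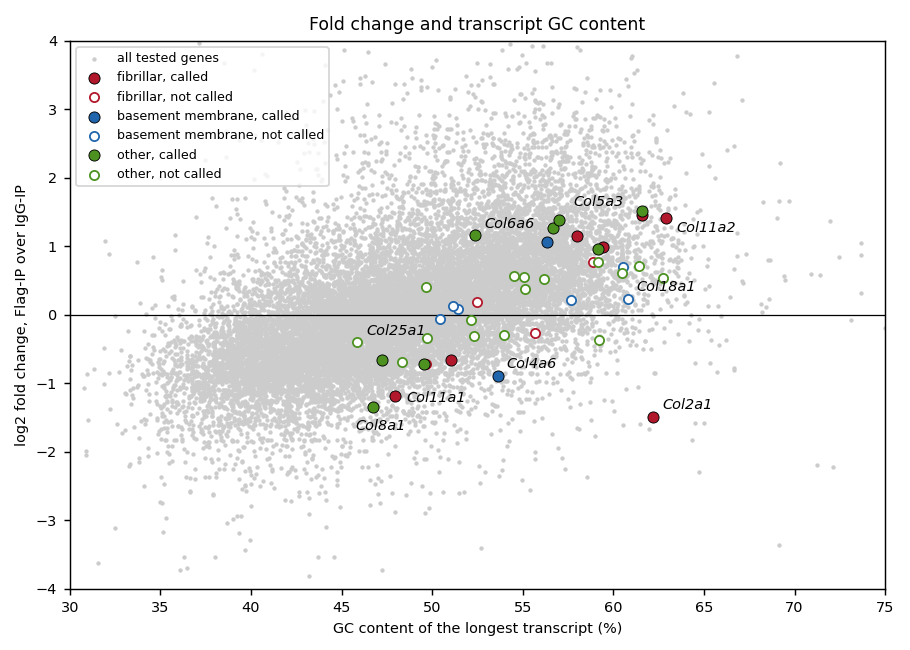
Log2 fold change of Flag-IP over IgG-IP against the GC content of the longest transcript for all tested genes (grey; those beyond the axes are not drawn) and the 43 collagens by class, filled where called. Col11a2, 62.9% GC, was called higher. Col11a1, 48.0% GC and thus near the median of 48.5% over all tested genes, was called lower. Col2a1, 62.2% GC, lies below the genes of like GC content.

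The counts also followed the length of the gene with its introns. Over the 44 collagens, Spearman's rho between count and gene span was 0.67 in Flag-IP 1, 0.81 in Flag-IP 2 and 0.81 in IgG-IP, against 0.20, 0.26 and 0.39 with the length of exons alone. Over protein-coding genes these were 0.80, 0.82 and 0.87 with span and 0.48, 0.48 and 0.47 with exons. Levels of different genes are therefore given per kb of span. The median collagen had 0.89, 0.99 and 0.80 normalized counts per kb of span, near the 0.85, 0.86 and 0.84 of all tested protein-coding genes.

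Between the 10th and 90th percentile of protein-coding genes, a band that leaves out 10% of them at each end by construction, lay 34 of 44 collagens in Flag-IP 1, 36 in Flag-IP 2 and 36 in IgG-IP. In IgG-IP the band ran from 0.42 to 1.47 normalized counts per kb of span, Col17a1 lay below it, and 7 lay above: Col6a6, Col2a1, Col18a1, Col6a1, Col1a1, Col3a1 and Col1a2. Col6a6 had 16.85, 11.02 and 6.22 per kb, the highest in each library. Col2a1 had 2.00, 2.28 and 6.02, so that in IgG-IP it was next to Col6a6. Col18a1 had 5.23, 5.84 and 4.70. Col1a1 had 4.35, 4.48 and 2.58, and Col3a1 2.82, 2.34 and 2.27. Genes with many counts can be long rather than dense: Col25a1, of 468.4 kb, had 0.52, 0.60 and 0.74 per kb. The lower genes were also longer (median span 194.8 kb) than the higher ones (75.4 kb), and rho between fold change and span was −0.41. Span and GC content went together in these collagens, with a rho of −0.595, so the 2 relations are not separate. With the trend on span removed, 12 collagens were higher against 5.99% of all tested genes, and 3 (Col11a1, Col2a1 and Col8a1) were lower against 2.73%.

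**Figure D4:**
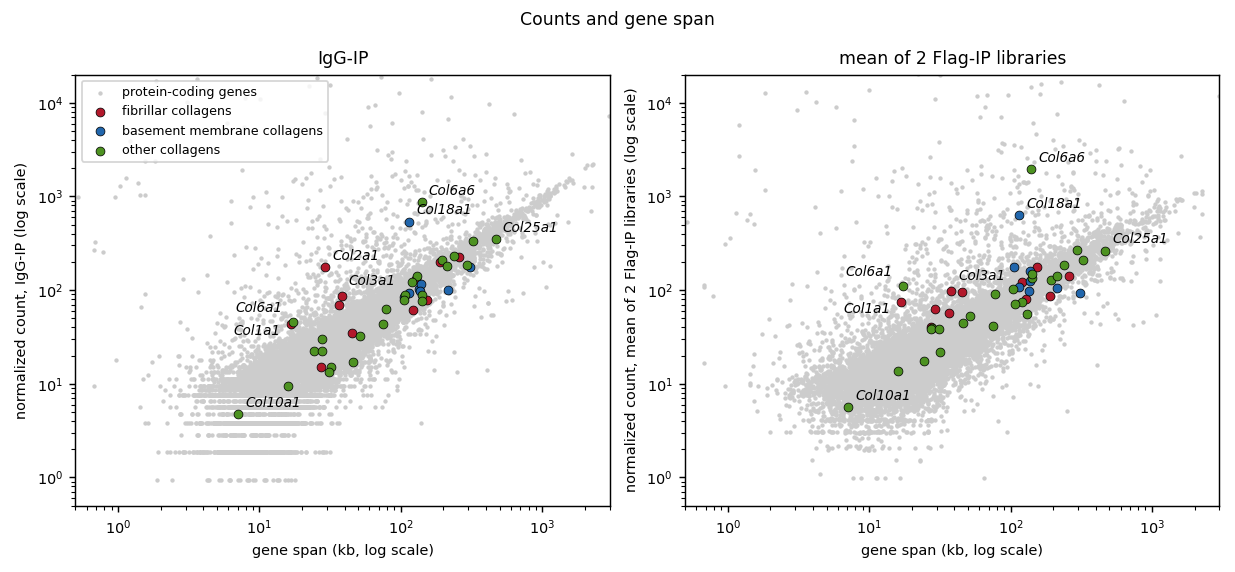
Normalized count against gene span including introns (both axes log) in the IgG-IP library (left) and as the mean of the 2 Flag-IP libraries (right), for protein-coding genes (grey) and collagens by class. Most collagens lie in the band of all genes, while Col6a6 and Col18a1 lie above it in both panels. Col2a1, Col6a1, Col1a1 and Col3a1 were also above the 90th percentile of protein-coding genes per kb of span in every library, Col2a1 furthest in IgG-IP.

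Genes that share their place with another gene are uncertain, since neither the strand nor the rule for counting reads in overlaps is given in the sources used here. An overlapping gene with counts was found for 13 collagens, and in 4 it had at least 50% as many counts as the collagen. These were Col10a1, which lies within Nt5dc1 (58, 99 and 126 counts), Col9a3 with Tcfl5, and Col4a1 and Col4a2, which overlap each other by only 22 bases. Among the called genes, Col5a1, Col15a1, Col4a6 and Col7a1 had an overlapping gene, and the most was 7.67% as many counts, for Gm12426 in Col15a1.

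Most genes that make, bind and break down collagen were not called. Of 78 such genes found, 73 were tested, 5 were higher, 4 were lower and 64 were not called, against the same 5.58% and 5.77% of all tested genes, with a median fold change of 0.16. With the GC trend removed, 0 of the 5 higher genes and 1 of the 4 lower genes, Adamts3, passed. Of 14 tested prolyl and lysyl modification enzymes, 6 folding and export factors, 6 cross-linking enzymes and 8 genes of TGF-beta signalling, 0 were called by edgeR or by DESeq2. At an unadjusted p under 0.05 edgeR had 3 of these 34, all higher, and DESeq2 had 0. DESeq2 gave no adjusted p for 15684 of the 17587 tested genes, and a gene without one could not be called by it. Their members with the most counts were the hydroxylase Leprel1 (98, 99 and 135 counts), the coat protein gene Sec24d (76, 66 and 93), the lysyl oxidase Loxl2 (64, 56 and 57) and the signal transducer Smad2 (448, 449 and 386).

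Among 12 tested matrix partners 3 were higher and 9 were not called, where 5.58% of all tested genes were higher. Tnxb, which encodes the fibril-binding tenascin-X, had 68, 73 and 28 counts (1.46 ± 0.39, adjusted p = 0.0045). Hspg2, the basement membrane proteoglycan perlecan, had 128, 144 and 79 counts (0.91 ± 0.28, adjusted p = 0.0185). The proteoglycan gene Bgn had 20, 3 and 0 counts and an adjusted p of 0.0467, with Flag-IP 2 at the limit that a count of 0 allows, so no fold is given. The microfibril gene Fbn1 had the most counts of this role, 163, 164 and 168, and was not called.

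Of 10 tested receptors 1 was higher, 2 were lower and 7 were not called, against 5.58% higher and 5.77% lower of all tested genes. Itga11, the α chain of a fibroblast integrin for fibrillar collagen, was higher with 105, 116 and 59 counts (1.04 ± 0.31, adjusted p = 0.0141). Itga1, the α chain of an integrin that binds type IV collagen, was lower with 73, 86 and 160 counts (−0.88 ± 0.27, adjusted p = 0.0174), as was the inhibitory leukocyte receptor Lair1 with 40, 45 and 93 counts (−0.997 ± 0.34, adjusted p = 0.0323). The collagen-activated kinase Ddr2 had the most counts, 100, 123 and 135, and was not called. Of 8 tested propeptide processing genes 2 were lower and 6 were not called. The lower ones were the proteases Tll1 (73, 93 and 165 counts, −0.86 ± 0.27, adjusted p = 0.0183) and Adamts3 (120, 146 and 231 counts, −0.67 ± 0.24, adjusted p = 0.0468). Of 9 tested breakdown genes 1 was higher and 8 were not called. The higher one was the inhibitor Timp2 with 73, 57 and 34 counts (1.07 ± 0.38, adjusted p = 0.0456), and Timp3 had the most counts with 74, 58 and 40.

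Markers of the cells that make collagen gave this background. DESeq2 gave no adjusted p for 15684 of the 17587 tested genes and could not call those. The normalized counts of 10 fibroblast and progenitor markers summed to 425, 359 and 319 (Flag-IP 1, Flag-IP 2 and IgG-IP), and 0 of the 8 tested were called by edgeR or DESeq2, with 2 at an unadjusted p under 0.05 in edgeR, both higher. Endothelial markers summed to 690, 763 and 673 and mural markers to 420, 423 and 324, with 0 of 8 and 0 of 7 called by either tool; at an unadjusted p under 0.05 edgeR had 1 endothelial marker higher, 1 lower and 1 mural marker higher. White adipocyte markers summed to 3693, 2227 and 2737, of which the lipase gene Lpl gave 3347, 1977 and 2511. Adipoq had 18, 14 and 3 counts, Lep 37, 20 and 12, Lipe 52, 35 and 23, and Retn 11, 6 and 3. Fabp4 had 30, 17 and 19 counts and Pnpla2 16, 5 and 9. Cidec, with 117, 93 and 152 counts, had both Flag-IP libraries below IgG-IP. Cfd (6, 4 and 7) was not tested. Of the 9 tested adipocyte markers Plin1 (34, 59 and 12) was higher and 8 were not called, where 5.58% of all tested genes were higher. Cartilage markers summed to 195, 158 and 143. Of the 4 tested, Acan was higher (80, 69 and 31 counts), and Comp (0.59), Hapln1 (−0.38) and Matn3 (−0.23) were not called. Of 5 tested skeletal muscle markers, Ckm (23, 19 and 4) and Tnnt3 (39, 26 and 9) were higher, where 5.58% of all tested genes were. Myh4 (47, 22 and 14), Myh1 (24, 14 and 21) and Ttn (218, 236 and 271) were not called. The normalized sums were 382, 318 and 301, of which Ttn gave 235, 234 and 255. Macrophage markers summed to 199, 161 and 250 and mesothelial markers to 68.9, 82.2 and 55.6, with 0 of 3 tested called by edgeR in each. The macrophage markers not tested were Lyz2 and Cd14, each with 0, 0 and 4 counts, and Cd68 with 4, 6 and 2. The part of these cells in the collagen fold changes was not tested.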

How the data were processed

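RNA from immunoprecipitates of white fat was sequenced, and the deposited table gives raw counts per gene for each of the 3 libraries. Per the submitters' processing notes, CASAVA 1.7, Bowtie 0.12.2 and build mm8 were used; neither counting tool, annotation release nor strand setting is given in the sources used here. Counts were tested as deposited with edgeR 4.0.16 (R 4.3.3), quasi-likelihood test, TMM scaling and filterByExpr with a minimum count of 10, over all genes; p-values were adjusted by Benjamini-Hochberg, and calls required less than 0.05. Single-library log2 ratios used a prior count of 2. Library totals were 98227791, 95824218 and 74176962 counts, with TMM factors of 0.84, 0.936 and 1.27, and depth limits genes with few counts.

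Gene spans, GC content and coding sequences came from GENCODE M21 on GRCm38, matched by Ensembl ID for 37693 of 39179 genes. Positions are on that build, not the authors' build. Trends on GC content or span were fitted with lowess (span 0.3) and entered as offsets. The procedure was also run on simulated counts. Every simulated gene had the same spread, so that run cannot show how the calls hold where spread differs between genes.

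Collagens named with counts were all that passed the threshold, the 3 with the highest mean count of each class, and Col1a1, Col1a2, Col3a1, Col4a1, Col4a2, Col6a1, Col6a2, Col6a3, Col15a1 and Col18a1. Further collagens set beside a called partner chain or neighbour were chosen after their values were seen. Of the partner genes, those that passed and the 1 with the highest mean count in each role were named. Members and lists were chosen with earlier results of these data known. Alternatives were scaling by RLE, by upper quartile or by total counts, dropping the low-count filter or raising it to a mean of 50, a likelihood ratio test, DESeq2 1.42.0, a test against a 1.5-fold change, removal of GC or span trends, and leaving out each Flag-IP library. Removing both trends together was added after seeing the data.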

Additional observations from a re-analysis of the deposited data

How the results depend on the processing

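The calls turned on the scaling, on GC content and on the test. Of all genes, 1996 were called, against 3350 with total-count scaling, 503 against a 1.5-fold change, 755 with the GC trend removed, 795 with the GC and span trends removed together (chosen after seeing the data) and 276 with DESeq2. Collagens called higher, 10 in all, were 6 with no filter and 1 each with total-count scaling, the 1.5-fold test, the GC trend removed, both trends removed and DESeq2. Collagens called lower, 7 in all, were 12 with total-count scaling, 4 with upper-quartile scaling or both trends removed, 3 with the likelihood ratio test or the span trend removed, 2 against a 1.5-fold change and 0 with DESeq2, where 3 were lower at an unadjusted p under 0.05. RLE scaling kept all 17 calls. In a refit of genes whose mean count was 50 or more, 7 of the 10 higher and all 7 lower calls were kept, and Col23a1, Col26a1 and Col4a2 were added. The other higher genes, Col11a2, Col17a1 and Col7a1, had means under 50 counts and were not in that refit. Partner genes called higher, 5 in all, were 3 with no filter, 1 with both trends removed and 0 with total-count scaling, the 1.5-fold test, the GC trend removed and DESeq2. Partner genes called lower, 4 in all, were 10 with total-count scaling, 2 with upper-quartile scaling or the likelihood ratio test, 1 with the GC trend removed and 0 against a 1.5-fold change, with the span trend or both trends removed and with DESeq2. DESeq2 could not call the 15684 of 17587 tested genes for which it gave no adjusted p. The cause of the changes between settings was not tested.

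The median fold change of all collagens (0.23) was −0.28 with total-count scaling, 0.30 with upper-quartile scaling, 0.19 with no filter, −0.22 with the GC trend removed, 0.37 with the span trend removed and −0.051 with both removed. Leaving out a Flag-IP library gave 0.175 (without Flag-IP 2) to 0.24. The fibrillar median (0.18) was −0.34, −0.21 and −0.10 with total-count scaling, the GC trend removed and both trends removed, and 0.04 without Flag-IP 1 and 0.315 without Flag-IP 2. The basement membrane median (0.17) was −0.34 with total-count scaling, −0.23 with the GC trend removed and 0.41 with the span trend removed, and 0.279 without Flag-IP 1 and 0.025 without Flag-IP 2. The median of the other collagens (0.46) was −0.057 with total-count scaling, −0.21 with the minimum mean of 50 counts, −0.24 with the GC trend removed and 0.01 with both removed, and leaving out a Flag-IP library gave 0.109 (without Flag-IP 1) to 0.407. Of the 26 collagens named by rule, 10 changed sign under some setting. Of the called ones this was Col6a1, which ran from −0.23 without Flag-IP 1 to 1.99 without Flag-IP 2. The other 9 were not called: 7 changed with the GC trend removed, among them Col18a1 (−0.68), Col4a1 (−0.57), Col4a2 (−0.22) and Col3a1 (−0.21). With both trends removed 6 changed, with total-count scaling 4 (Col18a1, Col3a1, Col4a1 and Col6a2), with the span trend removed Col25a1, without Flag-IP 1 Col6a2 (−0.02) and without Flag-IP 2 Col1a2 (0.18).

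No paired analysis was made, because the labels do not tell if a Flag-IP library and the IgG-IP library share an animal. With 1 library left in each group no residual degrees of freedom remain, so those fits gave values and no test, and the IgG-IP library could not be left out. Depth limits the sparse collagens, of which 10 tested genes had a mean under 50 counts.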
